A study of Homo sapiens with 8 samples.

Results

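The regions described here were dense clusters of accessible sites lying away from gene ends in H1975 and HCC44, established human cell lines from lung cancers. In each line, overlapping peaks of the 2 DMSO lists were merged. Regions present in both lists and more than 1 kb from either end of every protein-coding gene were kept and are called distal. Distal regions up to 12500 bp apart were stitched together, and a stitched group of 4 or more was a cluster. Members were thus chosen by the presence and spacing of DMSO peaks, and what the DMSO lists hold there is a description without a test. H1975 had 552 clusters among 20151 stitched groups and HCC44 had 769 among 24386. The H1975 clusters held 2615 component regions, 9.48% of its 27596 distal regions, and the HCC44 clusters held 3611, 10.7% of 33782.

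The assay was ATAC-seq, which uses a transposase to cut and tag chromatin that is open. The 4 groups, with 2 replicates each, were H1975 with DMSO, H1975 with ACBI1, HCC44 with DMSO and HCC44 with ACBI1, all for 96 h. ACBI1 is a degrader of SMARCA2, SMARCA4 and PBRM1, and its labelled dose of 1 mM is given only as labelled. Both lines are labelled as wild type, are grown in RPMI-1640 medium and each stands for 1 cancer. The labels do not say that replicates came from separate cultures, and the spread between them may be technical. Each sample gave 1 list of peaks without read numbers, so depth is unknown. A list without a peak at a place does not show that the place was closed. In H1975 the list lengths were 43525 and 41027 peaks for DMSO, and 27682 and 22133 for ACBI1. In HCC44 they were 50347 and 49945 for DMSO, and 26313 and 24862 for ACBI1. The shorter ACBI1 lists stand beside every share given below. Peaks at either end of the 6 epithelial marker genes, such as EPCAM and KRT8, were in 7 of 8 lists for all 6 and in the first HCC44 ACBI1 list for 5. Of the 4 mesenchymal markers, 3 had one in every list, and none of the 3 endothelial markers did. Of the 4 blood markers, 1 or 2 had one in each list.

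SWI/SNF complexes use the ATPase SMARCA2 or SMARCA4 to slide or eject nucleosomes, and much of their binding is at enhancers. Enhancers that lie close together often serve genes that define a cell's identity or its growth. Stitching neighbouring sites is the usual first step in listing super-enhancers, which are then ranked by histone acetylation or cofactor binding. No such mark was analysed here, so the clusters are named only as clusters.

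Components without a peak in either ACBI1 list of their line are called lost, those with one in a single list split, and those with one in both retained. Some components lie over annotated transcript starts, either of noncoding genes or at places in coding genes that are not the gene's ends. No annotated start or tRNA gene was at 91.8% of H1975 and 92.2% of HCC44 components. The letters of the start sequences are compared by fate below. The first 4 sequences below are the lost starts with the highest DMSO rank among those holding TGANTCA, the letters bound by AP-1 factors. Each is a window of 300 bases, 250 before and 50 after the start, on the strand of the transcript, from RefSeq on GRCh38.p14. TGANTCA is in capitals, and it reads the same on both strands.
LOC105372663, lost in HCC44, chr20:51366185-51366484, plus strand: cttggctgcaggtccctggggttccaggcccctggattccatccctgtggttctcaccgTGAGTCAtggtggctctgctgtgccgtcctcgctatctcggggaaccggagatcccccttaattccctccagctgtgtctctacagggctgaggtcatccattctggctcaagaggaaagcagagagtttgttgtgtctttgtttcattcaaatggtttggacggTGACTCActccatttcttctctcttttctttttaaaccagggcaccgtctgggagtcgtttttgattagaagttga
GNA15-DT, lost in HCC44 and split in H1975, chr19:3155126-3155425, minus strand: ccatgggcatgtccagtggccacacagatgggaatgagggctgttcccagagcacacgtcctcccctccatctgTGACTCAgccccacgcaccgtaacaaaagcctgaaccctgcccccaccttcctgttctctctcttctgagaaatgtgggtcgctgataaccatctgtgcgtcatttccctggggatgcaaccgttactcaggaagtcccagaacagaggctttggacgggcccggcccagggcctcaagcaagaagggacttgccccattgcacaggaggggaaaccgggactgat
LOC124903960, lost in HCC44, chr17:27552038-27552337, minus strand: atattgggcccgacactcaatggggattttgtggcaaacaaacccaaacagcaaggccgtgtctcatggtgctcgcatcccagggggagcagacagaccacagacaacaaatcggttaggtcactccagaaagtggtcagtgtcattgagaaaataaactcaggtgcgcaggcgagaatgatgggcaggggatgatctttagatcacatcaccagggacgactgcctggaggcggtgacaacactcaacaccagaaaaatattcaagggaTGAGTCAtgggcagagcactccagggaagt
LOC107986091, lost in HCC44, chr3:58214649-58214948, minus strand: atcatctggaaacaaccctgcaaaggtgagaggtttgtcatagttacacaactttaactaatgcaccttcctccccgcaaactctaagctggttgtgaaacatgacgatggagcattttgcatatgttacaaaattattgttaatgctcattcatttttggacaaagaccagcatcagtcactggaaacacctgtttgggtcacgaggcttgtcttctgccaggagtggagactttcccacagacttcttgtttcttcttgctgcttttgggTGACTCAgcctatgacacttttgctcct

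All 4 belong to long noncoding RNA (lncRNA) genes and hold between 3 and 9 CpG pairs. The next 3 are the starts with the highest DMSO rank among those retained in both lines, with each CpG in capitals.
LOC112268219, retained in both lines, chr1:2189548-2189847, plus strand: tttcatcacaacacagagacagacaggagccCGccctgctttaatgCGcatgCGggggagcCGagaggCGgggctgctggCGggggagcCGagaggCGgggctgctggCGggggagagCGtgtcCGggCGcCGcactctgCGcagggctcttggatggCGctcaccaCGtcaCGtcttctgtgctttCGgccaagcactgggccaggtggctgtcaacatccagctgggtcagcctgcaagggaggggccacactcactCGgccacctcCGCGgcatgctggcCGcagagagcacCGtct
TFAP2A-AS2, retained in both lines, chr6:10404252-10404551, plus strand: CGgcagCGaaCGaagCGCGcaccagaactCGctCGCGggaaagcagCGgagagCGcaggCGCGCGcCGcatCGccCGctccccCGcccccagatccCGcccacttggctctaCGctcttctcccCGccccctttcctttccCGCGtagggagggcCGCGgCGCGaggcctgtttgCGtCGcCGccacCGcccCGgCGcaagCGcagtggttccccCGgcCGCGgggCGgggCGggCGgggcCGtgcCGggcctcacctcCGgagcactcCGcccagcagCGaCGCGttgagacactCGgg
PHF19, retained in both lines, chr9:120868862-120869161, minus strand: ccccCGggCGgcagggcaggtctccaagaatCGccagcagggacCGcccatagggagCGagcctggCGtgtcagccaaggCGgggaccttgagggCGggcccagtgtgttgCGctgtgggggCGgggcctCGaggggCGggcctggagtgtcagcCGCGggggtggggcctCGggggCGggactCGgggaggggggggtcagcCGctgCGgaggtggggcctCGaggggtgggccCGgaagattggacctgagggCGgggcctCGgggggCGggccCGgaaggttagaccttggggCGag

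The 3 retained windows hold 23, 47 and 26 CpG pairs and no TGANTCA. TFAP2A-AS2 is antisense to TFAP2A, which encodes an AP-2 transcription factor, and PHF19 encodes a subunit of the Polycomb repressive complex. Genome sequence at components away from annotated starts was not used here.

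The clusters were short domains with few sites in them. In H1975 the span had a median of 25233 bp and ranged from 6461 to 75288 bp, and components covered 11.9% of the 14.7 Mb spanned. In HCC44 the median was 26929 bp and the range 8626 to 108857 bp, and components covered 14.1% of 22.4 Mb. Most clusters were just over the threshold: 332 of the H1975 clusters and 470 of the HCC44 clusters had exactly 4 components. Clusters of 6 or more numbered 106 and 129, and the largest had 11 and 13 components. In H1975, 363 clusters (65.8%) shared bases with a protein-coding gene, and in HCC44 470 did (61.1%). The 189 and 299 others lay a median of 18947 and 25429 bp from the nearest one. Clusters took the highest share of a chromosome's distal regions on chromosome 19 in H1975 (17.7%, in 49 clusters) and on chromosome 20 in HCC44 (16.2%, in 33 clusters). The lowest shares were 1.03% on chromosome 18 in H1975, which had 1 cluster, and 2.49% on chromosome X in HCC44.

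With ACBI1, more cluster components lost their peak in HCC44 than in H1975, and in both lines a larger share was retained than among all distal regions. In H1975, 1114 components (42.6%) were lost, against 50% of all its distal regions, 371 (14.2%) were split, against 14%, and 1130 (43.2%) were retained, against 36%. In HCC44, 2111 components (58.5%) were lost, against 62.8%, 288 (7.98%) were split, against 7.22%, and 1212 (33.6%) were retained, against 29.9%. The difference in lost share between the lines was not tested.

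Single distal regions, which were stitched to no other, gave the comparison. In H1975, 56.4% and 44.2% of cluster components had a peak in the 2 ACBI1 samples (50.3% ± 8.57, SD, n = 2), against 47.9% and 35.2% of the 15193 single regions (41.5% ± 9.02). In HCC44 the shares were 39.2% and 35.9% of cluster components (37.6% ± 2.31, SD, n = 2), against 34.0% and 31.9% of 18279 single regions (33.0% ± 1.53). Within each sample, clustered regions were the higher set, although in H1975 the range over the 2 samples of one set overlapped that of the other.

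The clustered share exceeded the single share by 8.44 and 9.08 percentage points in H1975 and by 5.15 and 4.04 in HCC44. The mean over the 4 ACBI1 samples was 6.68 points, higher in 4 of 4 (exact sign permutation test, two-sided, p = 0.125, the smallest that 16 arrangements give). The 2 samples of a line score the same regions, so the 4 differences are not independent, although the test treats them so. An excess was also present without ACBI1, in the DMSO lists of the other line. It was 8.36 and 9.95 points for HCC44 regions in the H1975 lists, and 2.27 and 2.28 for H1975 regions in the HCC44 lists. In a line's own DMSO lists every region has a peak by rule, so a change of the excess with ACBI1 was not tested there. Cluster components were also wider than single regions, with a median of 543 against 495 bp in H1975 and 719 against 641 bp in HCC44. Their median percentile by the authors' −log10 q within the DMSO lists was 48.9 against 44.4 and 51.4 against 46.2. Single regions were then weighted to the same 5 classes of rank and 5 of width. The excess with ACBI1 became 3.59 points in H1975, 1.31 in HCC44 and 2.45 over both. With a peak required over at least 50% of the region it was 6.31 in H1975, 1.82 in HCC44 and 4.06 over both.

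The share retained was higher in groups of 7 or more than in single regions, with small falls at 6 regions in H1975 and at 2 in HCC44. In H1975 it was 34.5% of single regions, 35.8% in groups of 2, and 38.4% in groups of 3, just outside the threshold. Just inside it, groups of 4 had 40.4%, followed by 45.6% for 5, 43.7% for 6 and 49.1% for 7 or more. In HCC44 the shares in the same order were 29.5%, 29.0% and 30.9% outside the threshold, then 32.2%, 33.3%, 34.2% and 39.6% inside it. No step stands at 4 regions in either line, so the threshold divides a gradual series.

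**Figure D1:**
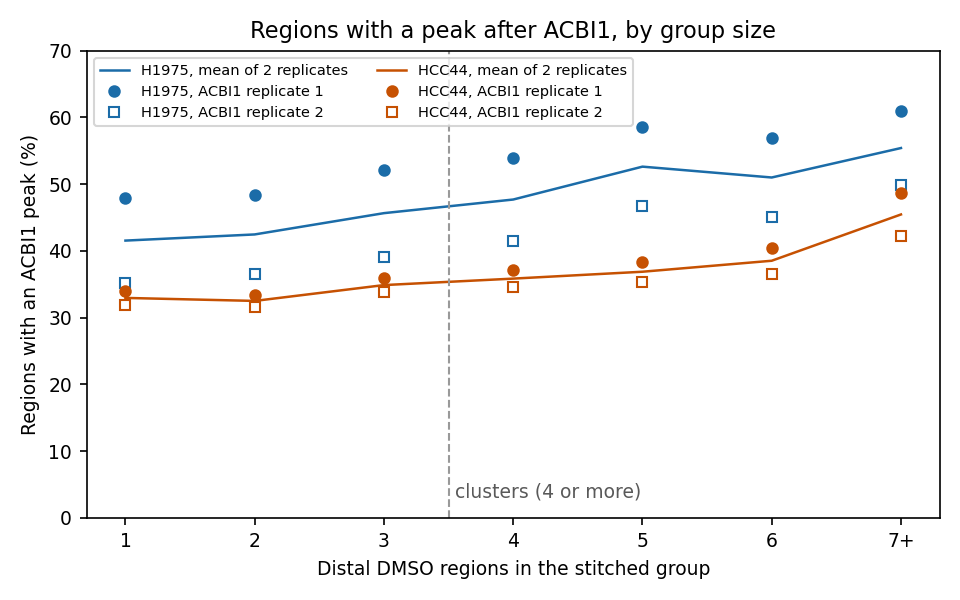
Percent of distal DMSO regions with a peak in each ACBI1 sample (y axis) by the number of regions in their stitched group (x axis). Filled circles are replicate 1, open squares replicate 2 and lines their mean, and the dashed line marks the threshold for a cluster. In H1975 the samples go from 47.9% and 35.2% for single regions to 61.0% and 49.9% for groups of 7 or more.

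Few clusters were lost or retained as a whole. Each cluster has several components, so mixed clusters would be common even if every component had its fate independently. No share of whole or mixed clusters expected from independent fates was computed. The counts below therefore describe the clusters and do not show that their components differed in fate more or less often than independent fates give. In H1975, 26 clusters (4.71%) lost every component, 26 retained every component, and 408 (73.9%) held both lost and retained components. In HCC44, 104 clusters (13.5%) lost every component, 13 (1.69%) retained every one, and 586 (76.2%) were mixed. The median cluster retained 41.4% of its components in H1975 and 25% in HCC44. Clusters with no retained component numbered 80 and 162.

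**Figure D2:**
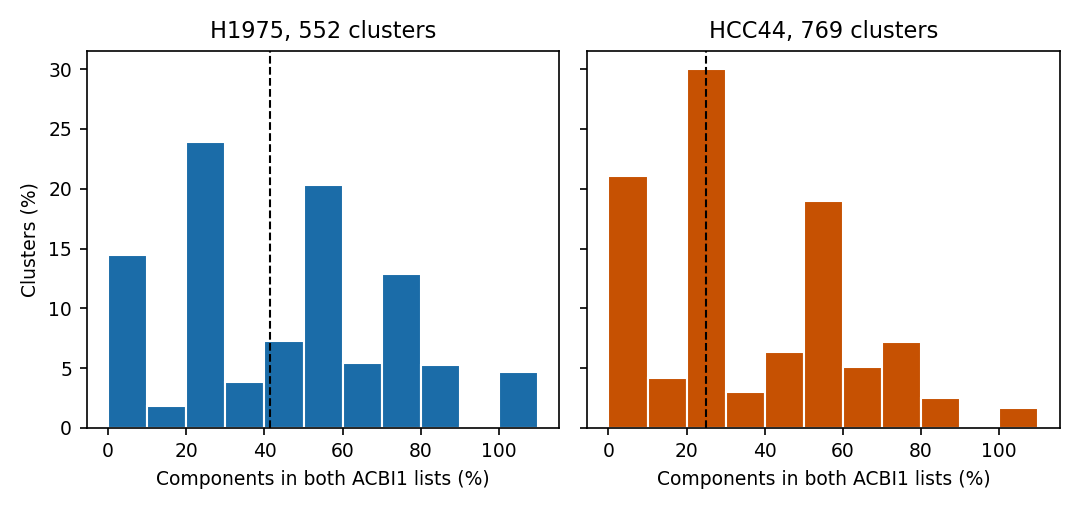
Percent of clusters (y axis) by the percent of their components with a peak in both ACBI1 lists (x axis, bins of 10 that include their left edge, so the last bar is 100%). The dashed line is the median, 41.4% in H1975 and 25% in HCC44, and most clusters lie between the extremes.

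Neighbours within a cluster shared their fate only slightly more often than the overall shares give. In H1975, 1531 pairs of adjacent components were each lost or retained, and 876 pairs (57.2%) had the same fate, while the overall shares alone would give 50%. In HCC44 the same held for 1390 of 2396 pairs (58.0%), beside 53.6%. Adjacent components lay a median of 6211 bp apart in H1975 and 6692.5 bp in HCC44. The components at the outer edges of clusters and the inner ones had nearly the same retained share, 43.0% against 43.3% in H1975 and 33.6% against 33.5% in HCC44.

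Few clusters held a new peak. The clusters spanned only 14.7 Mb in H1975 and 22.4 Mb in HCC44, and no share expected for such spans was computed. The counts therefore do not show that new peaks were rarer inside clusters than elsewhere. A region with a peak in both ACBI1 lists and in neither DMSO list lay inside 13 of the H1975 clusters (2.36%) and 31 of the HCC44 clusters (4.03%). These were 13 of 652 such regions in the H1975 genome and 31 of 1331 in HCC44. Peaks of the line's own 2 lists inside cluster spans were 6.33% and 6.73% of all peaks with DMSO and 5.73% and 5.81% with ACBI1 in H1975. In HCC44 they were 7.46% and 7.43% with DMSO and 5.86% and 5.67% with ACBI1. The DMSO shares are raised by the choice of members from the DMSO lists.

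Retained components were wider and ranked higher than lost ones, as were retained single regions. In H1975 the median width was 397 bp for lost, 602 bp for split and 746.5 bp for retained components, and in HCC44 it was 610, 832 and 965.5 bp. The median DMSO percentile by −log10 q was 36.7 for lost and 66.1 for retained components in H1975, and 44.3 and 63.9 in HCC44. In 5 equal classes of rank among distal regions, lowest first, 63.4%, 61.3%, 56.1%, 35.3% and 8.88% of H1975 components were lost. In HCC44 the classes gave 75.8%, 64.8%, 63.0%, 57.3% and 37.7%. The top class of HCC44 components still lost a larger share than the top 2 classes of H1975 components. Of single regions in the same classes, 67.4%, 66.8%, 61.9%, 44.8% and 13.2% were lost in H1975. In HCC44 the single regions gave 68.7%, 67.8%, 71.1%, 64.6% and 44.3%. Components were thus lost more often than single regions in the lowest HCC44 class, and less often in every other class of both lines. A broad peak has more bases to overlap a peak of another list, and how far width alone sets these shares was not tested.

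Where a component carried an annotated start, it was mostly retained. In H1975, 28 of 30 components at a tRNA gene were retained (93.3%), as were 85.3% of 95 at an internal or alternative start of a coding gene and 74.2% of 89 at a lncRNA start. Of the 2401 with none of these, 39.8% were retained. In HCC44, 35 of 36 components at a tRNA gene were retained (97.2%), with 84.6% of 117 at coding starts, 58.9% of 129 at lncRNA starts and 30.1% of 3329 with none. Annotated starts or tRNA genes were at 15.5% of retained and 1.97% of lost components in H1975, and at 17.3% and 2.79% in HCC44. Single regions showed the same order, with 30.5% of those with no annotated start retained in H1975 and 26.3% in HCC44. Leaving all annotated starts out, the clustered minus single difference was 9.24 points in H1975 and 4.37 in HCC44.

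**Figure D3:**
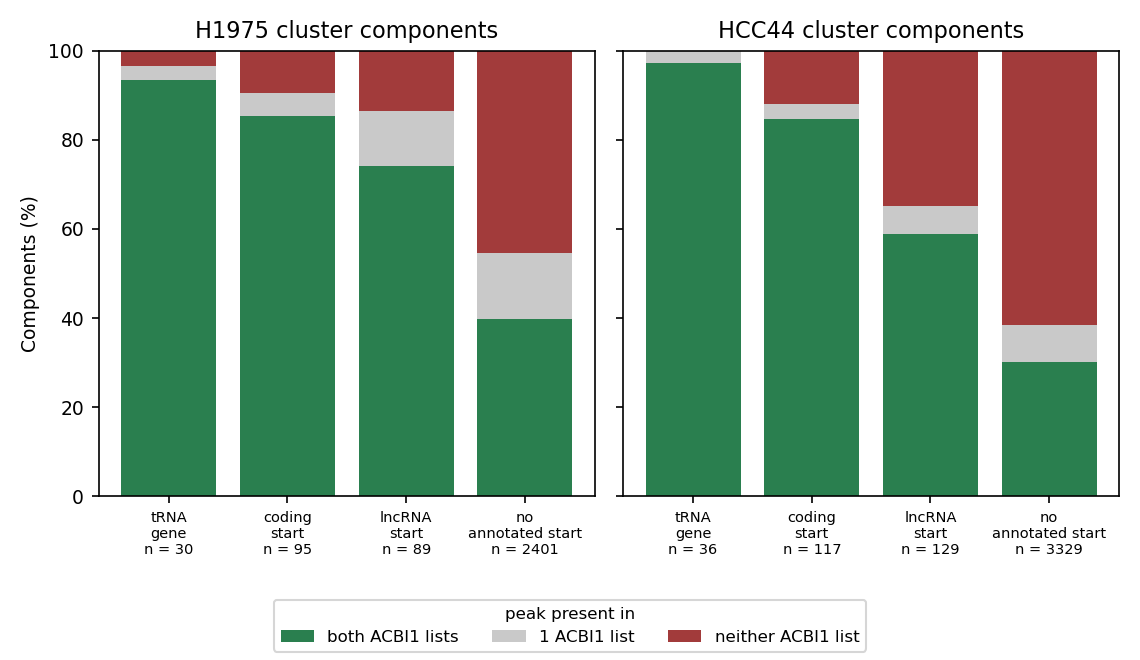
Percent of cluster components (y axis) with a peak in both, 1 or neither ACBI1 list, by what is annotated at the component (x axis, with the number of components). The part with a peak in both lists falls from 93.3% at tRNA genes to 39.8% with no annotated start in H1975, and from 97.2% to 30.1% in HCC44.

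A tRNA gene was at a larger share of cluster components than of single regions, a difference not tested, with 1.15% of components against 0.237% in H1975 and 0.997% against 0.219% in HCC44. Transfer RNA genes are transcribed by RNA polymerase III and often lie in groups. In H1975, 9 clusters held a component at a tRNA gene, and 42 of their 51 components were retained. In HCC44 there were 11 such clusters, and 47 of their 55 components were retained. Of the clusters with 3 or more such components, 2 of 5 in H1975 and 5 of 8 in HCC44 were on chromosome 6. Among clusters that lost every component, 2 of 26 in H1975 and 10 of 104 in HCC44 held an annotated start or tRNA gene. Among those that retained every component, 12 of 26 and 10 of 13 did. Of all clusters, 167 of 552 in H1975 (30.3%) and 218 of 769 in HCC44 (28.3%) did.

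The letters in all start windows inside components were counted by fate, with no test. The lost windows printed above were chosen for holding TGANTCA and do not bear on these shares. In HCC44, 13 of 26 lost start windows lying whole inside a cluster component held TGANTCA (50%), against 13.7% of 161 retained ones. Lost windows had a median of 7 CpG pairs and retained ones 24. In H1975, only 6 start windows in clusters were lost, and 1 held TGANTCA. Of its 127 retained windows 18.1% did, and 5 of its 7 split windows. Among single regions, 66.7% of 45 lost and 7.76% of 876 retained windows held it in H1975, and 37.6% of 109 and 7.97% of 891 did in HCC44. Of all 35116 start windows of the table, 7.71% held TGANTCA, and 10.4% of lncRNA starts did. GGAATG, the TEAD letters, searched on both strands as GGAATG or CATTCC, was in 26.9% of the lost and 12.4% of the retained HCC44 windows, and in 14% of all windows. A match describes the letters and is no evidence of binding.

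A pair of microRNAs chosen after their values were seen show both fates, and their seeds (bases 2 to 8) are in capitals. MIR193A lay in a component retained in both lines, and MIRLET7A2, a let-7 gene, in one lost in HCC44.
hsa-miR-193a-3p, retained: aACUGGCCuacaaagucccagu
hsa-let-7a-5p, lost: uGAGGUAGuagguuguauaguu

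The largest H1975 clusters ran from fully retained to almost fully lost. The longest lay in PVT1, a lncRNA gene downstream of MYC, at chr8:127851229-127926516. MYC, a transcription factor of growth, was the nearest coding gene at 108277 bp. Of its 11 components, 11 and 10 had a peak in the 2 ACBI1 lists, and the HCC44 lists held 10 and 10 with DMSO and 9 and 11 with ACBI1. A second cluster farther downstream, at chr8:128141847-128197952, had 9 components, of which 4 were lost, 2 split and 3 retained.

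The cluster beyond DUSP10, at chr1:221802099-221869252, went the other way. DUSP10 encodes a phosphatase that inactivates stress-activated MAP kinases, and it lay 60009 bp away. Of the 9 components, 1 and 0 had a peak with ACBI1 in H1975. In HCC44, 7 and 6 had one with DMSO and 0 and 0 with ACBI1, so the peaks were absent with ACBI1 in both HCC44 lists too.

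Other large H1975 clusters were mixed. The cluster over DNAJB12, which encodes an endoplasmic reticulum co-chaperone, had 11 components, of which 9 were retained and 2 lost. The cluster at ETS2, an ETS transcription factor gene, had 9, with 6 lost and 2 retained, and in HCC44 the counts at those sites were 6 and 6 with DMSO and 0 and 0 with ACBI1. TRAK1, whose product links mitochondria to motor proteins, also had 6 of 9 lost and 2 retained. ATXN1, which encodes the nuclear protein ataxin, had 7 of 9 lost and 1 retained. ADHFE1, which encodes a mitochondrial oxidoreductase, had 4 lost, 3 split and 2 retained. The cluster 28784 bp from SMOX, the spermine oxidase gene, had 5 of 8 lost and 2 retained.

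The cluster at OR1F1, an olfactory receptor gene, was the tRNA cluster with the most components. At chr16:3149795-3192109, all 9 H1975 components had a peak in both ACBI1 lists, and 7 of them were at tRNA genes. In HCC44 the DMSO lists had 7 and 6 of these places and the ACBI1 lists 5 and 7. LMNA, the gene of the nuclear lamins A and C, retained 7 of 8 components in H1975, and the HCC44 lists held 7 and 7 of its sites for DMSO and 6 and 6 for ACBI1. The cluster at ZSWIM4, which contains the microRNA host gene MIR23AHG, also retained 7 of 8, with the remaining component split.

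**Figure D4:**
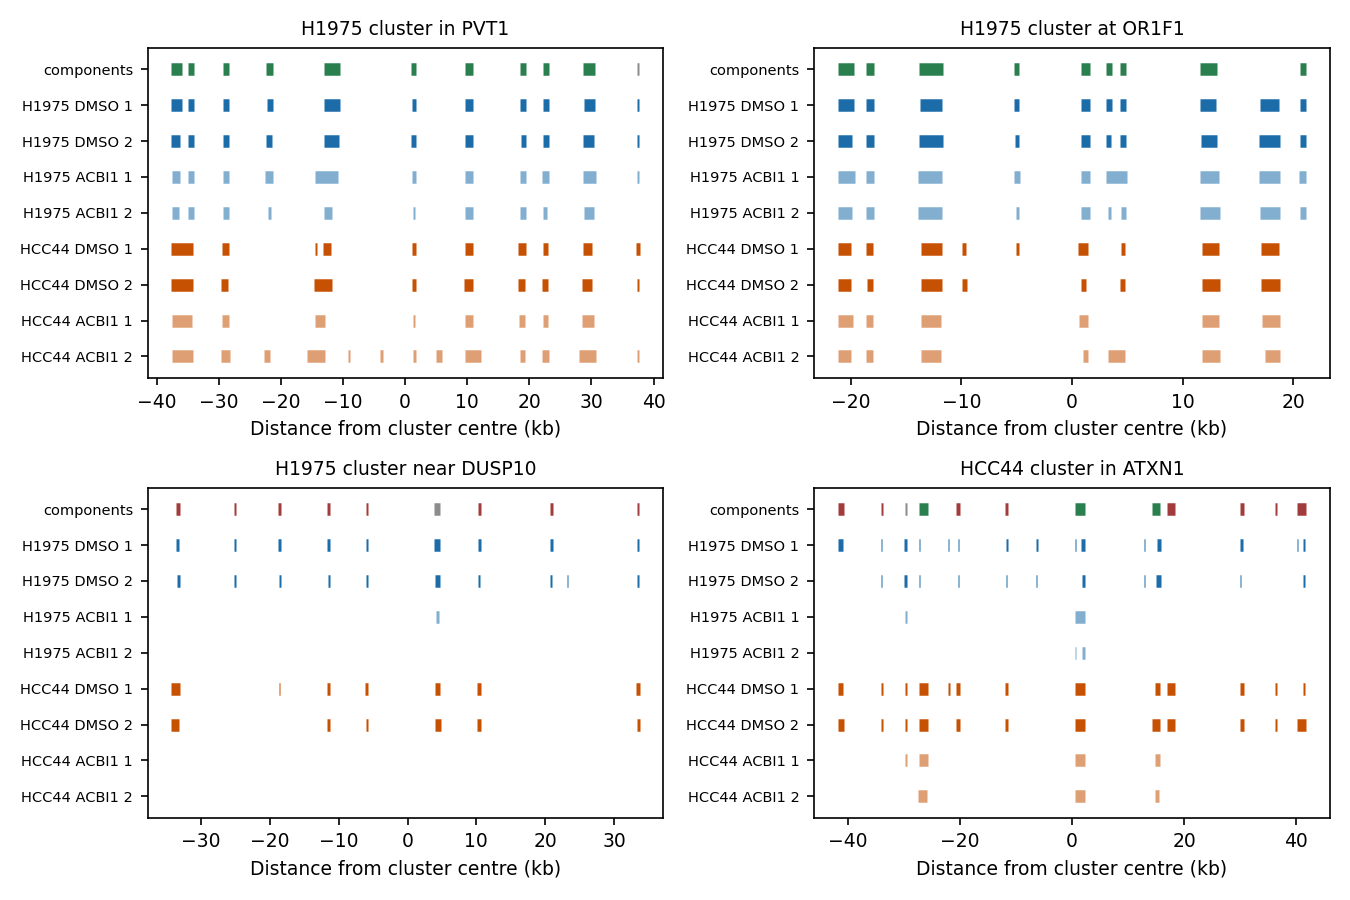
Peaks in all 8 lists at 4 named clusters, by distance from the cluster's centre (x axis, kb); each bar is a peak at its true width and each line of bars a sample. The top line shows components in green where retained, grey where split and red where lost; the PVT1 and OR1F1 clusters keep their peaks, DUSP10 keeps 1 in 1 list, and ATXN1 keeps 3 of 12 in both HCC44 lists.

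Of the H1975 clusters without a single ACBI1 peak, the largest was over NPC1, a lysosomal cholesterol transporter gene, with 5 components, at chr18:23563642-23594074. In HCC44, 2 and 4 of these had a peak with DMSO and 0 and 0 with ACBI1. The next 4 had 4 components each. They lay near SLC44A1, a choline transporter gene, and over EHD4, an endocytic ATPase gene, ECE1, the endothelin-converting enzyme gene, and CMIP, an adaptor gene. At SLC44A1 and EHD4, all 4 sites had a peak in both HCC44 DMSO lists and none in either ACBI1 list. At CMIP the HCC44 lists held 3 and 3 with DMSO and 0 and 0 with ACBI1. ECE1 was the exception, with 2 and 2 and then 1 and 1.

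In HCC44, the 2 largest clusters had 13 components. The cluster over PRKCH, a protein kinase C gene, spanned 108857 bp at chr14:61461862-61570718, and 8 components were retained, 3 split and 2 lost. ERRFI1 encodes a feedback inhibitor of EGFR and lay 94481 bp from the other, at chr1:8120791-8212595, which had 6 lost, 2 split and 5 retained. Of the 13 PRKCH sites, 8 and 9 had a peak in the H1975 DMSO lists and 7 and 5 in the ACBI1 lists. The ERRFI1 sites had 8 and 7, then 3 and 3.

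The remaining large HCC44 clusters again showed every mixture. The cluster 12055 bp from SMOX had 12 components, 7 of them lost and 5 retained. ATXN1 had 12, with 8 lost and 3 retained. TRIO, a guanine nucleotide exchange factor gene, had 11, with 8 retained and 2 lost. AHRR, the repressor gene of the aryl hydrocarbon receptor, had 11, with 7 retained and 4 lost, but at its sites the H1975 lists held 4 and 5 peaks for DMSO and 0 and 0 for ACBI1. EPB41L4B, a gene of a family that links membranes to the cytoskeleton, had 10 components at chr9:109286320-109356437, with 9 lost, 1 split and none retained. At those 10 places the H1975 lists held 6 and 6 peaks for DMSO and 3 and 2 for ACBI1.

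Beside SOCS3, which encodes a feedback inhibitor of cytokine signalling, a cluster 3213 bp away retained 6 of 10 components and lost 4. The cluster holding the lncRNA genes LINC01270 and PELATON, with the transcription factor gene CEBPB 74590 bp away, lost 6 of 9 and retained 2. TRAK1 lost 5 of 9 and retained 2. A cluster with 6 of 8 retained lay 109522 bp from PPIAL4G, its nearest coding gene and one of a family of near-identical gene copies. The placement of this cluster by the authors' alignment is uncertain.

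The largest HCC44 clusters without an ACBI1 peak had 6 components each. They included those at LOC107985876, at SH3PXD2B, a podosome adaptor gene, and 10019 bp from GRB10, an adaptor gene that restrains insulin receptor signalling. The next, over IGFL2, an insulin growth factor-like gene, had 5. At the GRB10 sites the H1975 lists held 6 and 5 peaks for DMSO and 1 and 1 for ACBI1.

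Many clusters were present in both lines, and their components mostly had the same fate. Exactly 272 clusters of each line overlapped in pairs, 49.3% of the H1975 clusters and 35.4% of the HCC44 clusters. They held 1131 overlapping component pairs. Of these, 414 were retained in both lines and 317 were lost in both, while 39 were lost in H1975 and retained in HCC44 and 116 the reverse. Of the 886 pairs lost or retained in each line, 731 had the same fate (82.5%), while the shares in each line alone would give 50.2%. Components of high DMSO rank were retained more often in each line, and the part of rank in this share was not tested.

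Components with a partner in the other line's clusters were the more retained ones. In H1975, 51.5% of the 1131 shared components and 36.9% of the 1484 others were retained, and in HCC44 43.1% of 1099 and 29.4% of 2512. The line's own ACBI1 lists gave these fates, so they describe these libraries and were not tested.

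Of the 272 pairs, 148 had a higher retained share in H1975, 67 had a higher share in HCC44 and 57 had the same. At least 50% of components were retained in both lines in 89 pairs, and fewer in both in 103. Only 4 pairs lost every component in both lines: those at TTLL5, a tubulin-modifying enzyme gene, EHD4, CREB5, a basic leucine zipper factor gene, and SLC44A1. Only 3 retained every component in both, among them those at OSBP, an oxysterol-binding protein gene, and OR6S1, an olfactory receptor gene. The OSBP and OR6S1 clusters held tRNA gene components.

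**Figure D5:**
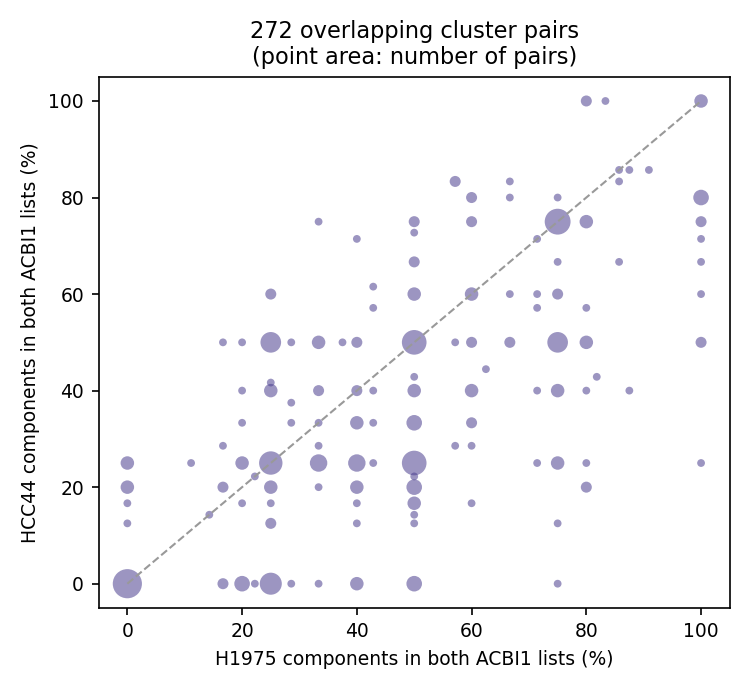
Percent of components with a peak in both ACBI1 lists in H1975 (x axis) and HCC44 (y axis) for the 272 overlapping cluster pairs; point area gives the number of pairs at a position and the dashed line marks equality. More pairs lie below the line (148) than above it (67).

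The 10 pairs with the most components were at ATXN1, SMOX, PRKCH, TRAK1, DNAJB12, PVT1, GNG7, TRIO, KRT7 and OR1F1. PVT1 kept 10 of 11 in H1975 and 6 of 7 in HCC44, and lost none in either. DNAJB12 kept 9 of 11 in H1975 but 3 of 7 in HCC44. TRIO had the opposite order, with 3 of 6 and 8 of 11, as did PRKCH, with 3 of 7 and 8 of 13. GNG7, a G protein subunit gene, kept 5 of 8 and 4 of 9. KRT7, a keratin gene of simple epithelia, kept 2 of 7 and 3 of 9. TRAK1 kept 2 of 9 in both lines.

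Looked up in the other line, whose lists the rule did not use, the components also had fewer peaks with ACBI1. Of the H1975 components, 76.8% and 75.0% had a peak in the HCC44 DMSO lists and 36.5% and 33.4% in its ACBI1 lists, a change of −40.9 points. Of the HCC44 components, 67.5% and 65.5% had a peak in the H1975 DMSO lists and 41.2% and 30.8% in its ACBI1 lists, a change of −30.5 points. Treatments did not overlap in either line. The mean change was −35.7 points (exact permutation test within line, two-sided, p = 0.0556, the smallest that 36 arrangements give). Within a line the 6 arrangements allow no p below 0.333.

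Single regions changed by as much, −43.7 points in the HCC44 lists and −27.8 in the H1975 lists, a mean of −35.8. With each list held to its 22133 highest-ranked peaks, the change of the components was −9.24 points for H1975 components, −3.92 for HCC44 components and −6.58 over both. The drop was therefore several times smaller between lists of equal length than between the lists as deposited. Equal length shortens the DMSO lists most and so also removes any real fall in the number of peaks. List length and loss of peaks cannot be told apart by this setting.

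Peaks at the ends of the genes nearest to clusters were listed with ACBI1 in a larger share than the components were. These shares are unlike measures, since a gene counted with any peak within 1 kb of either end. Components also had a peak in both DMSO lists by rule, which the genes did not need. An end peak cannot be a component, so the rule did not use it. In H1975, 74.7% and 75.9% of the 526 nearest genes had one with DMSO and 74.1% and 70.5% with ACBI1, a change of −2.95 points, beside −1.81 for all 20056 protein-coding genes. In HCC44, 79.3% and 79.1% of 700 nearest genes had one with DMSO and 71.6% and 72.0% with ACBI1, a change of −7.43 points, beside −3.90 for all genes. In H1975 it was −1.14 points without ACBI1 replicate 2, −4.75 without ACBI1 replicate 1, and 0 for clusters stitched within 5 kb. The mean over both lines was −5.19 points (exact permutation test within line, two-sided, p = 0.0556, the smallest possible). With lists of equal length the direction turned, to 11.7 points in H1975, 14.6 in HCC44 and 13.1 over both.

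Of the H1975 genes with an end peak in both DMSO lists, 11 of 391 had one in neither ACBI1 list (2.81%), against 2.52% of all such genes. In HCC44, 41 of 546 did (7.51%), against 5.53%. The H1975 share is near its background, and neither difference was tested.

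Genes of AP-1, Hippo, TGF-β and other pathways were taken from lists of related genes and counted as near a cluster when one lay within 50 kb. Of all protein-coding genes, 6.09% had such a cluster in H1975 and 7.05% in HCC44. AP-1 factors are leucine zipper dimers that bind many enhancers. Of 10 AP-1 genes, 3 were near a cluster in H1975 and 4 in HCC44, and JUNB, BATF3 and ATF3 were so in both. At JUNB, 5 of 5 components were retained in H1975 and 3 of 4 in HCC44, in a cluster over the neighbouring gene HOOK2. BATF3 and ATF3 lie close together and share a cluster, which lost 3 of 4 components in each line. In HCC44, ATF3 was near 2 clusters, with 5 of their 8 components lost and 3 retained.

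YAP1 and WWTR1 (TAZ) are the Hippo pathway's co-activators and act with TEAD factors. Of 13 genes of this list, 2 were near a cluster in H1975 and 5 in HCC44, and WWTR1 and AMOTL2, a target that restrains YAP, were so in both. WWTR1 retained 3 of 5 components in H1975 and 2 of 6 in HCC44, and AMOTL2 3 of 7 and 4 of 7.

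In the TGF-β list of 12, 3 genes were near a cluster in H1975 and 5 in HCC44. PLAU, a plasminogen activator gene, and TGFBI, a matrix protein gene, were among those near one in both. TGFBI retained 2 of 4 in H1975, while in HCC44 5 of 5 were lost. PLAU, near 2 clusters in H1975, retained 6 of 10 there and 2 of 4 in HCC44. TGFBR1, a receptor gene chosen here for its values, was near a cluster in HCC44 that lost 4 of 4.

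In the integrin and matrix list of 16, 5 genes were near a cluster in each line, and ITGA5 and ITGB6, integrin subunits, and COL4A1, a basement membrane collagen, were so in both. ITGA5, near 2 clusters in H1975, retained 7 of their 10 components there and 2 of 6 in its 1 HCC44 cluster. The H1975 cluster that overlapped the HCC44 one retained 3 of 5. ITGB6 retained 1 of 5 and 1 of 4, and COL4A1 2 of 6 in each line. Of the 12 genes of the EGFR list, none was near a cluster in H1975 and 2 were in HCC44, NRG1 and ERRFI1. In HCC44, ERRFI1 was near 3 clusters, with 9 of their 14 components retained, 4 lost and 1 split. Among these, the cluster 49633 bp away overlapped an H1975 cluster 50462 bp away, so the limit of 50 kb falls between that pair.

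In the list of 15 inflammatory genes, 4 were near a cluster in each line, and NFKBIA, the NF-κB inhibitor gene, was so in both, with 5 of 7 components lost in each line. The choice of the next 3 genes was made with their values in view. IL1A and IL1B, interleukin-1 genes that share 1 HCC44 cluster, had 5 of 5 components lost. LIF, a cytokine gene of the interleukin-6 family, had 6 of 6 retained in H1975. The IL1A ends had a peak in all 4 DMSO lists and in none of the 4 ACBI1 lists.

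Of 15 interferon and STING genes, none was near a cluster in H1975 and 3 were in HCC44: IRF1, ISG15 and MX1. IRF1, an interferon-response transcription factor gene, lost 5 of 6 components, and MX1, an antiviral GTPase gene, 3 of 4. ISG15, a ubiquitin-like modifier gene, retained 4 of 4. The list's signalling genes STING1, CGAS and TBK1 had no cluster within 50 kb in either line.

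Of 12 lung and epithelial lineage factors, ELF3, an epithelial ETS factor gene, was near a cluster in both lines, and no other member was in either. It retained 1 of 6 components in H1975 and 1 of 5 in HCC44. Among 10 genes of the epithelial to mesenchymal transition, SNAI1, a repressor of epithelial genes, and CDH1, the E-cadherin gene, were near one in both lines. SNAI1 had 2 of 4 lost in H1975 and 4 of 4 lost in HCC44, and CDH1 2 of 5 and 3 of 4.

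Of 12 SWI/SNF subunit genes, 1 was near a cluster, SMARCA4 itself, in both lines. At chr19:10939467-10954514 in H1975, 3 of 4 components were lost and 1 retained. In HCC44, 3 of 4 were lost and 1 split. The ends of SMARCA4 had a peak in all 8 lists.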

How the data were processed

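ATAC-seq peak lists of 8 samples were used, 1 list per sample, so the authors called peaks per sample and did not pool replicates. Per the submitters' processing notes, BWA and hg38 were used. The peak caller, versions and filters are not given in the sources used here. The deposited lists have 9 columns in the broadPeak layout. The authors' fold enrichment of each peak is a ratio over the caller's background, and the authors' p-value and q-value were deposited as −log10 values. The lowest −log10 q lay between 10.0 and 10.2 in the 8 lists. These values depend on depth and were used only to rank or filter peaks within a list. No read counts were used, so depth and its precision are unknown.

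Regions were built from the lists as the report describes. A peak was present at a region when it shared at least 1 bp. Gene positions came from a RefSeq table of GRCh38.p14 with 20056 protein-coding genes and 465 tRNA genes, and 35116 start windows came from RefSeq. The gene table gives no strand. Chromosome names matched hg38. A genome sequence was not used, so the planned motif search of whole components was not made.

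Samples are the units of every test, all exact permutation tests, two-sided, with a threshold of 0.05 that none of them can reach. Regions are not replicates. In the sign permutation test the 2 samples of a line score the same regions, so its units are not independent. Named clusters are, per line, the 10 with the most components, the 5 largest without an ACBI1 peak and the 5 with the most retained components, and across lines the 10 overlapping pairs with the most components. Each is named by the coding gene sharing the most bases, or else the nearest. Gene list members near a cluster in both lines are named. A few clusters and genes that these rules select are not reported here. Members and lists were chosen with earlier results of these data known. Alternatives were other stitching distances, sizes, thresholds, windows, overlaps and list lengths, strata of rank and width, leaving out each replicate in turn, and a replicate block. Leaving out annotated starts was chosen after seeing the data. The scripts ran in Python 3.11.15. They used pandas 2.3.3, numpy 2.4.6 and scipy 1.17.1, drew figures by matplotlib 3.10.9, and were tested on simulated data.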

Additional observations from a re-analysis of the deposited data

Results flagged for a closer look

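The excess of clustered over single regions changed with ACBI1 in opposite directions in the 2 lines, when each line's regions were looked up in the other line's lists. In the H1975 lists, components of HCC44 clusters exceeded single HCC44 regions by 8.36 and 9.95 percentage points with DMSO and by 6.43 and 6.47 with ACBI1, a change of −2.71. In the HCC44 lists, components of H1975 clusters exceeded single H1975 regions by 2.27 and 2.28 points with DMSO and by 5.73 and 4.44 with ACBI1, a change of 2.81. Treatments did not overlap in either line. The 2 changes differed by 5.52 points (exact permutation test within line, two-sided, p = 0.0556, the smallest that 36 arrangements give). That difference is what singled the result out, so its p is no independent evidence. Over both lines the mean change was 0.050 points (exact permutation test within line, two-sided, p = 1).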

How the results depend on the processing

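No value can pass 0.05 in this design, so stability means direction and size. Over 15 results, 147 values were recomputed with another setting and 80 with a replicate left out. The number of clusters followed the rule: 45 in H1975 and 39 in HCC44 with stitching within 5 kb, 1471 and 1957 within 25 kb, 1528 and 1985 with at least 3 regions, 106 and 129 with at least 6, and 347 and 334 with a −log10 q of at least 20. The lost share of components moved to 51.2% in H1975 and 66.2% in HCC44 with the same number of peaks in each list. In HCC44 it was also 53.1% with at least 6 regions, 69.5% with −log10 q of at least 20, 67.1% with a peak over at least 50% of the region, and 61.6% without annotated starts. The retained share moved to 31.0% in H1975 with a peak over at least 50% of the region. In HCC44 it was 39.8% with 5 kb, 36.8% with at least 6 regions, 23.5% with −log10 q of at least 20, 27.7% with equal list lengths, 25.5% with 50% cover and 30.1% without annotated starts. The change of end peaks at nearest genes reversed with equal list lengths, to 11.7, 14.6 and 13.1 points in H1975, HCC44 and both, and the cause was not tested. With stitching within 5 kb it was 0 in H1975 (exact p = 1) and −4.49 over both lines (exact p = 0.278). In H1975 it was −5.29 with at least 6 regions, −1.14 without ACBI1 replicate 2 and −4.75 without ACBI1 replicate 1. With a replicate left out, clusters numbered 552 to 785 in H1975 and 769 to 1067 in HCC44. The lost share ranged from 43.6% to 55.8% and from 60.8% to 64.1%, and the retained share from 38.5% to 56.4% and from 30.8% to 39.2%. In H1975 the highest lost share, 55.8%, was without ACBI1 replicate 1, and the highest retained share, 56.4%, was without ACBI1 replicate 2. With 1 ACBI1 list left in a line no component can be split, so neither share could fall there. The clustered minus single difference over both lines was 5.87 to 7.55 points with a replicate left out. It was 4.06 with a peak over at least 50% of the region, 4.39 with −log10 q of at least 20, 2.45 with strata of rank and width, and 10.3 with at least 6 regions. In HCC44 it went from 4.59 to 1.82 with 50% cover, 1.31 with strata, 2.25 with equal list lengths, 2.48 with −log10 q of at least 20, 7.32 with 5 kb and 8.87 with at least 6 regions. The replicate number was not taken as a pairing, since each line has 2 pairs and the labels name no shared batch (correlation of same-numbered deviations in −log10 q, over the 1130 and 1212 components with a peak in every list of the line, 0.327 in H1975 and 0.131 in HCC44). With the replicate block the other-line changes were −40.9, −30.5 and −35.7 points, with an exact p of 0.5, 0.5 and 0.125, the smallest possible. How far unknown depth sets presence could not be measured.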
